A study of Mus musculus with 10 samples.

Results

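Genes that give the oviduct lining its epithelial character were followed in mice without the progesterone receptor. The set held 40 genes, chosen by symbol for their known roles: 7 transcription and splicing factors, 4 keratins, 15 junction and polarity proteins, 12 surface and secreted proteins and 2 proteins of polarised membrane trafficking. All 40 were measured, among 19938 named genes in all. Each was read by 1 probe set on the array, so no second probe set was there to compare.

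The samples were whole oviducts of pre-pubertal mice that carried a lacZ insertion in Pgr, the progesterone receptor gene. Homozygous mice, called PRKO, phenocopy the receptor knockout. The controls were not wild type but heterozygous PR+/- mice, which carry 1 copy of the same insertion and have normal fertility. Every animal was 21 to 23 days old at its injection of 5 IU equine chorionic gonadotropin (eCG), which drives follicle growth, and received 5 IU human chorionic gonadotropin (hCG), which triggers ovulation, 44 to 47 h later. Oviducts were taken 8 h after hCG. Tissue of 3 animals was pooled for each array, with 5 arrays and 15 animals per genotype. The p-values therefore reflect how pools, not single animals, vary. The insertion is present in every cell, and a whole oviduct holds muscle, stroma, vessels and mesothelium besides epithelium. Fewer cells of a type and less RNA per cell therefore cannot be told apart.

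The oviduct is lined by secretory and multiciliated epithelial cells, which bathe and move the egg. Such cells are held together by tight junctions near the lumen, by adherens junctions built on cadherins, and by desmosomes, which anchor the keratin filaments. Grainyhead-like, ETS and Krüppel-like factors keep epithelial genes on, ESRP proteins splice their transcripts in the epithelial way, and repressors of the ZEB and SNAIL families turn many of these genes off. ZEB and SNAIL proteins bind the E-box CACCTG.

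Most of the promoters that could be searched held that element. The genes were chosen for known epithelial roles and not by a motif search. Because these repressors turn many such genes off, the choice may still not be independent of the element. RefSeq promoter windows of GRCm38.p6, from 250 bases before to 50 bases after the start site, were held for 23 of the 40 genes (28 windows, Krt19 and Cdh16 not among them). The E-box CACCTG, searched on both strands, was present in 18 of the 23, or 78.3%, against 22.2% of the 15614 tested genes with a window. In the 250 bases before the start alone, the shares were 15 of 23 and 19.3%. The 5 genes with a window but no such match were Cgn, Jup, Muc4, Muc16 and Spint1. The windows differed in composition, with a median of 61.0% G and C for these genes and 57.3% for tested genes. A match is a description of the letters and does not show that a factor binds there.

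The promoters of 6 genes are shown to display where the element lies, for 2 genes with several matches (Ap1m2 and Lsr), the keratin pair Krt8 and Krt18, and the surface proteins Epcam and Muc1. Each run is the 250 bases before the start site, 5′ to 3′ along the gene, with the E-box of either strand (CACCTG or CAGGTG) in capitals.
Epcam, GRCm38.p6, chr17:87635729-87635978, plus strand: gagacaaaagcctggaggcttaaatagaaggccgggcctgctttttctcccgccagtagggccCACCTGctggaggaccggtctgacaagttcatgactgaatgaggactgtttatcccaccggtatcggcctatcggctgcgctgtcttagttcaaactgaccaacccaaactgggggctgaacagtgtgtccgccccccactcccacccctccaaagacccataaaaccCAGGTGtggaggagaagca
Ap1m2, GRCm38.p6, chr9:21312334-21312583, minus strand: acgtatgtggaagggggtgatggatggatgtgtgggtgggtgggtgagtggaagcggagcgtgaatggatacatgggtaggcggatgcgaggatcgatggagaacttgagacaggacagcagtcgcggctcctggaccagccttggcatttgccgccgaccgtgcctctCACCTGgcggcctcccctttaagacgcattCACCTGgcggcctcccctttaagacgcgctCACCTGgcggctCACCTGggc
Lsr, GRCm38.p6, chr7:30973470-30973719, minus strand: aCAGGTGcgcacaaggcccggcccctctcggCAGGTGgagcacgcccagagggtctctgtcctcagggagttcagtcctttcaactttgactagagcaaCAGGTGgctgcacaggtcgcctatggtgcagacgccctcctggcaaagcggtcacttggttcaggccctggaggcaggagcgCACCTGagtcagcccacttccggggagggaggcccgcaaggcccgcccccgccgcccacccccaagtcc
Krt8, GRCm38.p6, chr15:102004343-102004592, minus strand: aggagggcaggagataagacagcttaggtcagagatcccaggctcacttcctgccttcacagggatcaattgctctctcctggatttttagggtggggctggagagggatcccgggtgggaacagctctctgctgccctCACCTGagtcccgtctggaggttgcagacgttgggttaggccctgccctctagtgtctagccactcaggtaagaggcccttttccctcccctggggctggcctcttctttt
Krt18, GRCm38.p6, chr15:102027966-102028215, plus strand: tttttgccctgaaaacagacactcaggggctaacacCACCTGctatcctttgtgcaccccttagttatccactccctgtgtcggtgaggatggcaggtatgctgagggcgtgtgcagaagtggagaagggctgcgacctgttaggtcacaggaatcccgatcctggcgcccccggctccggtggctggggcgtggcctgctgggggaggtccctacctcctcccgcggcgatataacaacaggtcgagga
Muc1, GRCm38.p6, chr3:89228806-89229055, plus strand: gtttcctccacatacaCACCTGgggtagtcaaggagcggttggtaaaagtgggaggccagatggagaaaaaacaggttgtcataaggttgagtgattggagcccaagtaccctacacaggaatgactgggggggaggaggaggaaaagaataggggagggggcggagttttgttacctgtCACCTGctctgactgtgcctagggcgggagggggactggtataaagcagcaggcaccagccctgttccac
Ap1m2 and Lsr carried 4 matches each, Epcam and Muc1 2 each, and Krt8 and Krt18 1 each. Counted from the start site to the first base of each match, those of Ap1m2 lay close to it, at -81, -51, -21 and -9, and those of Lsr were spread out, at -219, -151 and -69 with 1 more at the far end of the window.

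Other motifs did not set the promoters apart in this way. The core of the progesterone and glucocorticoid receptor element, ACANNNTGT, occurred in 2 of 23 windows (Muc1 and Epcam), or 8.70%, against 6.65% of tested genes. The grainyhead element AACCGGTT occurred in 0 of 23, against 0.199% of tested genes, and no match says only that these letters are not in the window. The ETS core CCGGAA was present in 21.7% and 22.0%, and the TATA box TATAAA in 17.4% and 13.6%. Each was searched on both strands. No motif contains another in full.

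**Figure D1:**
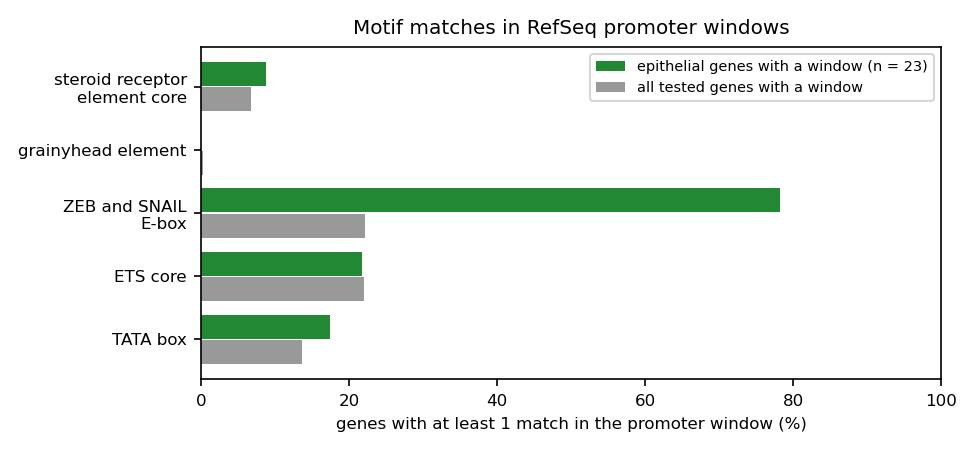
Share of genes (x axis, percent) with at least 1 match to each of 5 motifs (y axis) in the RefSeq promoter window, for the 23 epithelial genes with a window (green) and for all tested genes with one (grey). The E-box bar reaches 78.3% for the epithelial genes and 22.2% for tested genes, while the other 4 pairs of bars lie within a few percent of each other.

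Of the genes themselves, 2 of 40 differed between genotypes. Cdh16, a cadherin first known from kidney tubules, rose to 1.83-fold of its PR+/- signal, and Krt19, an acidic keratin of simple epithelia, fell to 75.7%. The other 38 were not called by limma, a linear model fitted over all 19938 genes, at a threshold of 0.05 on the p adjusted by Benjamini-Hochberg. That is a share of 5.0%, while 4.96% of all tested genes were called (1.09% rose, 3.87% fell). The share called among these genes was thus at the background. At an unadjusted limma p under 0.05 stood 7 of the 40, or 17.5%, against 21.1% of all genes: 3 were lower, against 11.1%, and 4 higher, against 10.1%.

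The data bounded most differences closely. For 37 of the 40, the 95% interval of the difference lay wholly within 1.5-fold of no change, which held for 92.5% of all tested genes. The exceptions were Cdh16, Krt19 and Wfdc2. The median log2 difference, PRKO minus PR+/-, was 0.05 over the 40 genes and 0.03 over all tested genes. Normalization moved it: the medians were 0.098 and 0.0063 with quantile normalization, 0.094 and 0.0024 with cyclic loess, and 0.019 and -0.0056 with each array centred on its median. PRKO means were higher for 25 and lower for 15 (37.5%, against 43.9% of all genes), and 20 of the 40 differed by less than 0.1 on the log2 scale. Without the dimmest 50% of probe sets, 37 of the 40 remained, of which 2 (Krt19 and Muc1) were called, or 5.41%, against 10.6% of the 11291 genes then tested.

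**Figure D2:**
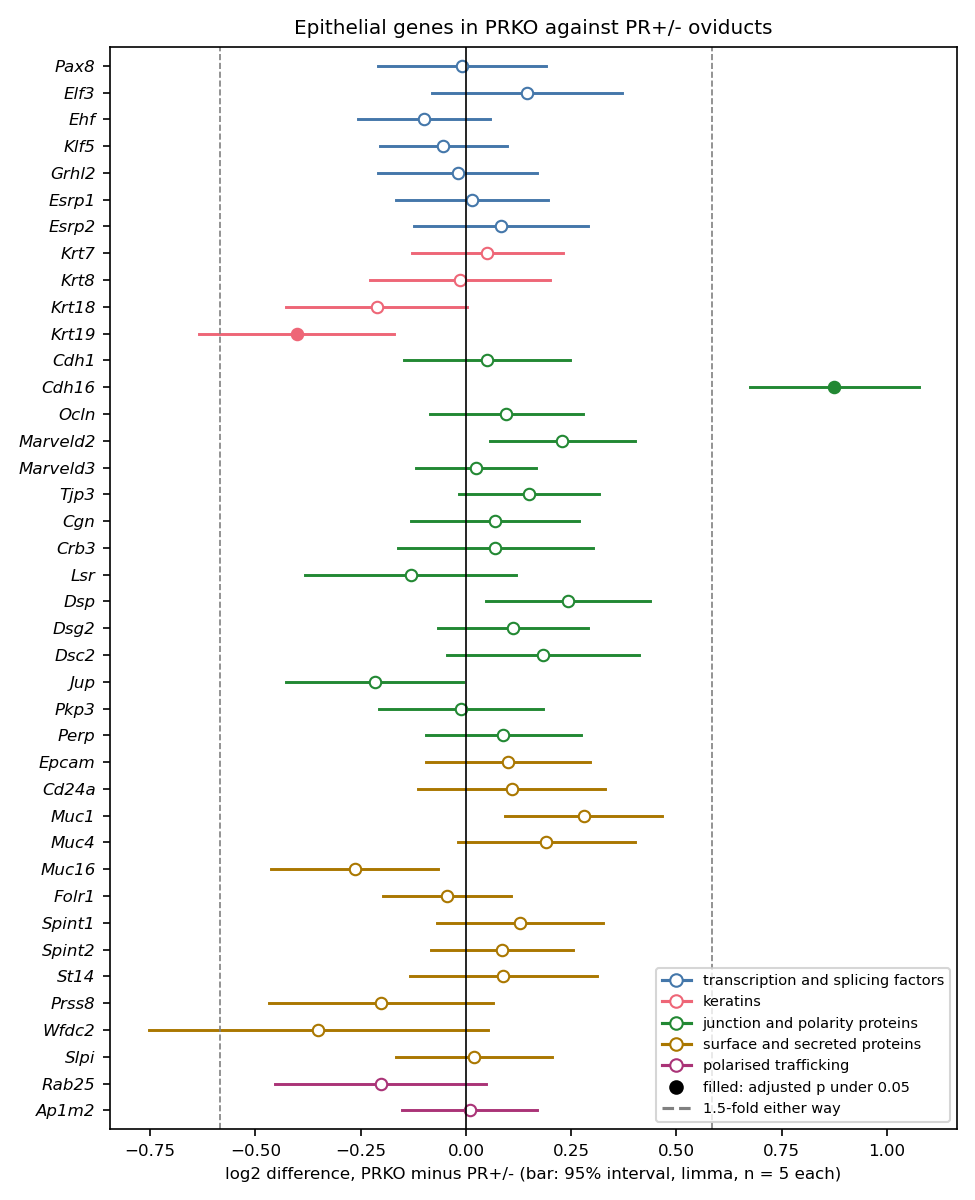
Log2 difference between PRKO and PR+/- oviducts (x axis) for each of the 40 genes (y axis), with the 95% interval from limma, n = 5 arrays each; colours mark the role and filled points an adjusted p under 0.05. Cdh16 at 0.88 and Krt19 at -0.40 are the 2 filled points, and 37 of the 40 bars stay between the dashed lines at 1.5-fold.

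Among the transcription and splicing factors, 0 of 7 were called and 0 of 7 had an unadjusted limma p under 0.05. The largest difference was that of Elf3, an ETS factor of epithelia. Its log2 signal was 7.94, 8.04, 7.81, 7.69 and 7.70 in PR+/- replicates 1 to 5 and 8.22, 8.19, 7.86, 7.83 and 7.81 in PRKO replicates 1 to 5. PRKO replicates 1 and 2 were above all others, and the remaining 3 lay within the PR+/- range, so the groups overlapped (log2 difference 0.14 ± 0.11 SE, limma adjusted p = 0.451).

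Ehf, a second ETS factor, followed with signals of 9.80, 9.88, 9.72, 9.82 and 9.76 in PR+/- and 9.69, 9.76, 9.70, 9.80 and 9.53 in PRKO. Its difference was -0.10 ± 0.073 (limma adjusted p = 0.449), with PRKO replicate 5 the lowest array. Pax8, the paired-box factor that marks Müllerian secretory epithelium, was at 8.45 to 8.58 in PR+/- and 8.17 to 8.66 in PRKO, a log2 difference of -0.01 with a 95% interval of -0.21 to 0.19. Grhl2, the grainyhead-like activator of Cdh1 and other junction genes, differed by -0.02 (-0.21 to 0.17) and Klf5, a Krüppel-like factor, by -0.05 (-0.21 to 0.10). The splicing regulators Esrp1 and Esrp2 differed by 0.01 (-0.17 to 0.19) and 0.08 (-0.12 to 0.29). The intervals of all 7 thus left room for a change of at most 0.37 on the log2 scale, while the median of the 7 was -0.01, a sign that turned with quantile or cyclic loess normalization (both 0.04) and with the interquartile range covariate described below (0.19).

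Keratins form filaments as pairs of a basic type II and an acidic type I chain. Here the basic chains are Krt7 and Krt8 and the acidic chains Krt18 and Krt19. Both acidic chains had larger differences than the basic ones, an order seen after the values were known. Krt19 was called, and its signals were 11.05, 11.13, 10.91, 11.01 and 10.995 in PR+/- and 10.90, 10.80, 10.56, 10.57 and 10.25 in PRKO.

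Every PRKO array lay below every PR+/- array, though PRKO replicate 1 by only a narrow margin, and PRKO replicate 5 was far below the rest. Krt19 averaged 11.02 ± 0.079 over the PR+/- arrays and 10.62 ± 0.25 over the PRKO arrays (SD, n = 5 each), a log2 difference of -0.40 ± 0.11 (SE, limma adjusted p = 0.0475). That call did not hold when any 1 of 8 arrays was left out (difference -0.43 to -0.31, limma adjusted p = 0.0679 to 0.120); it held only without PRKO replicate 1 (0.0175) or PRKO replicate 2 (0.0344). When the interquartile range of signals on an array entered the model as a covariate, the Krt19 difference was -0.18 (limma adjusted p = 0.580). That range was 3.37 to 3.48 in PR+/- and 3.13 to 3.42 in PRKO. The covariate thus partly follows genotype, and a call lost with it cannot be ascribed to array spread.

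Krt18 was also lower in 4 of 5 PRKO arrays than the PR+/- mean, at 9.97, 10.05, 9.80, 9.72 and 9.74 in PR+/- and 9.89, 9.74, 9.54, 9.66 and 9.40 in PRKO. The groups overlapped, and its log2 difference of -0.21 ± 0.10 was not called (limma adjusted p = 0.243). Its basic partner Krt8, whose gene is its direct neighbour on the chromosome, differed by -0.01 (95% interval -0.23 to 0.20). For Krt8 the PR+/- arrays were the more scattered, at 9.06 to 9.54, and the PRKO arrays at 9.17 to 9.36 fell inside that range. Krt7 differed by 0.05 (-0.13 to 0.23), with PRKO replicate 1 highest at 9.41 and PRKO replicate 5 lowest at 8.98.

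Within each array, the log2 ratio of Krt19 to Krt7 set the PRKO pools apart more evenly than Krt19 alone. Relative to the PR+/- mean, that ratio was -0.36, -0.34, -0.49, -0.49 and -0.58 in PRKO replicates 1 to 5, against -0.06 to 0.13 in PR+/-. The ratio of Krt19 to Krt18 was -0.10 to -0.31 in PRKO and -0.09 to 0.13 in PR+/-, also without overlap but close to it. The ratio of Krt19 to Krt8 did overlap, at -0.14, -0.15, -0.33, -0.52 and -0.80 in PRKO and -0.17 to 0.21 in PR+/-. The pairs were formed after the values were seen and carry no test. A ratio shows unequal change, not which gene moved.

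**Figure D3:**
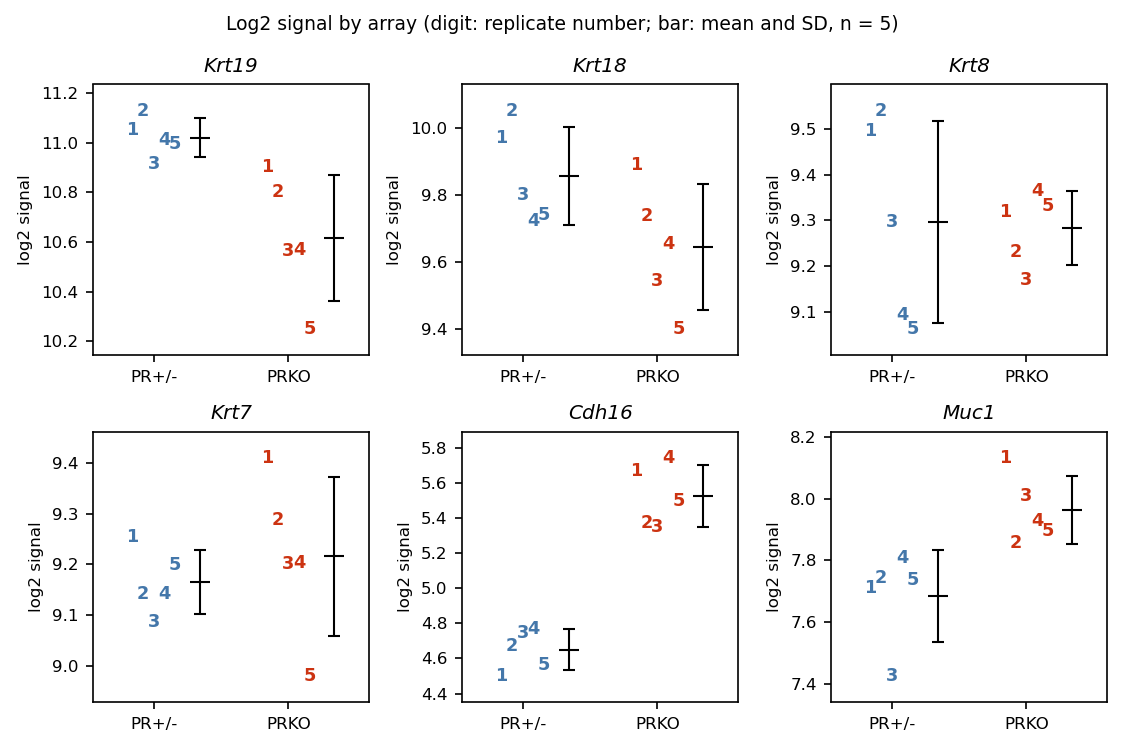
Log2 signal (y axis) of the 4 keratins, Cdh16 and Muc1 on each array by genotype (x axis); digits are replicate numbers, and bars give the mean and SD of 5 arrays. Krt19 runs from 10.91 to 11.13 in PR+/- and from 10.25 to 10.90 in PRKO, Cdh16 runs from 4.499 to 4.77 in PR+/- and from 5.348 to 5.742 in PRKO, and Krt7 and Krt8 overlap.

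Mesothelium, the outer cover of the oviduct, also makes keratins, and its markers were read beside Krt19. Of 6 mesothelial markers, 1 fell, Msln (log2 -0.45, limma adjusted p = 0.0177), against 3.87% of all tested genes. Of these markers 0 rose and 5 were not called. Their summed linear signal was 1522 to 1689 in PR+/- and 1564, 1558, 1563, 1357 and 1247 in PRKO replicates 1 to 5. PRKO replicate 5 was lowest for these markers and for Krt19, and also for the summed signal of all genes and of the endothelial and secretory markers. Over PRKO replicates 1 to 3 the mesothelial sum was level while Krt19 went from 10.90 to 10.56. Single markers differed in this. Msln went down over PRKO replicates 1 to 5, at 8.21, 8.10, 7.99, 7.85 and 7.65, as Krt19 nearly did. Upk1b did not, at 8.07, 8.19, 8.46, 8.28 and 8.00. Among the uncalled markers, Upk3b differed by -0.26 (95% interval -0.49 to -0.04) and Wt1 by -0.002 (-0.18 to 0.18). Upk1b, Bnc1 and Lrrn4 differed by -0.10, 0.06 and 0.08. The part of mesothelial cells in the Krt19 difference was not tested.

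Junction genes held the one rise of the set. Cdh16 signals were 4.499, 4.67, 4.75, 4.77 and 4.57 in PR+/- and 5.67, 5.37, 5.35, 5.74 and 5.495 in PRKO. Every PRKO array lay above every PR+/- array, by more than the whole range of either group. The means were 4.65 ± 0.12 and 5.53 ± 0.18 (SD, n = 5 each), and the log2 difference was 0.88 ± 0.093 (SE, limma adjusted p = 5.5e-05). It was called in each of the 20 alternatives in which it was tested, with a difference of 0.82 to 0.95. The signal lies near the middle of the array, at percentile 48.0 of the probe sets, and was removed with the dimmest 50% of them.

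Cdh1, the E-cadherin that holds epithelial cells together in adherens junctions, was not called. Its signals were 9.60, 9.64, 9.37, 9.42 and 9.51 in PR+/- and 9.79, 9.64, 9.49, 9.52 and 9.34 in PRKO. The groups overlapped fully, and the log2 difference was 0.05, with a 95% interval of -0.15 to 0.25.

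At the tight junction and the apical edge, 0 of 7 genes were called and 1 had an unadjusted limma p under 0.05. That was Marveld2, or tricellulin, which seals the points where 3 cells meet, at 6.19, 6.32, 6.34, 6.47 and 6.20 in PR+/- and 6.44, 6.62, 6.47, 6.68 and 6.46 in PRKO. Only PR+/- replicate 4 reached into the PRKO range, and its log2 difference was 0.23 ± 0.081 (limma adjusted p = 0.122). Lsr, the receptor that recruits tricellulin to those points, differed by -0.13 (95% interval -0.38 to 0.12). Lsr was close to even in PR+/-, at 7.81 to 7.93, and widely spread in PRKO, at 8.16, 7.86, 7.60, 7.54 and 7.44. Occludin (Ocln), a strand protein whose gene is the direct neighbour of Marveld2, differed by 0.10, and its relative Marveld3 by 0.02. The scaffold proteins Tjp3 (ZO-3) and Cgn (cingulin), which sit under the strands, differed by 0.15 and 0.07. Crb3, the crumbs protein that marks the apical side, differed by 0.07, with an interval of -0.16 to 0.30.

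Of 6 desmosome genes, 0 were called and 2 (Dsp and Jup) had an unadjusted limma p under 0.05, on opposite sides of 0. Dsp, desmoplakin, which ties keratin filaments to the desmosome, had the largest difference. It was at 8.51, 8.66, 8.44, 8.21 and 8.52 in PR+/- and 8.75, 8.60, 8.87, 8.73 and 8.60 in PRKO. PR+/- replicate 4 was the lowest array and PR+/- replicate 2 reached into the PRKO range, and the difference was 0.24 ± 0.091 (limma adjusted p = 0.144). The desmosomal cadherins Dsg2 and Dsc2, which cross the gap between cells, differed by 0.11 (-0.07 to 0.29) and 0.18 (-0.04 to 0.41).

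Jup, plakoglobin, which links those cadherins to desmoplakin, stood on the other side of 0. It was at 9.02, 9.04, 8.92, 8.95 and 8.90 in PR+/- and 8.98, 8.98, 8.63, 8.67 and 8.495 in PRKO. PRKO replicates 1 and 2 matched the controls while replicates 3, 4 and 5 lay below all of them, and the difference was -0.22 ± 0.098 (limma adjusted p = 0.2215). Pkp3, plakophilin 3, differed by -0.01 and Perp, a small desmosomal membrane protein, by 0.09. Of the 15 junction and polarity genes, 12 had the higher mean in PRKO and 3 the lower (20%, against 43.9% of all tested genes). Their median log2 difference was 0.09, against 0.03 over all tested genes. It was 0.13 with quantile normalization, 0.12 with cyclic loess and 0.06 with each array centred on its median.

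Surface and secreted proteins gave 0 calls in 12 genes by limma, 2 of which (Muc1 and Muc16) had an unadjusted p under 0.05. Muc1, the transmembrane mucin of the apical surface, was at 7.71, 7.74, 7.42, 7.81 and 7.74 in PR+/- and 8.13, 7.86, 8.01, 7.93 and 7.90 in PRKO. The groups did not overlap, and the log2 difference was 0.28 ± 0.087 (limma adjusted p = 0.0834). Of the 40 genes, 3 had groups that did not overlap (Cdh16, Krt19 and Muc1), or 7.5%, against 7.2% of all tested genes. PRKO was above for 2 of them and below for 1, against 2.15% and 5.06% of all genes. Muc1 was called in 3 of the 21 alternatives, with an adjusted p of 0.0420 to 0.04904: cyclic loess, the variance trend with robust moderation, and removal of the dimmest 50% of probe sets.

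The other mucins went separate ways. Muc16, a large transmembrane mucin that mesothelium also makes, was at 4.88, 4.89, 4.91, 5.07 and 4.82 in PR+/- and 4.499, 4.92, 4.68, 4.69 and 4.46 in PRKO. PRKO replicate 2 lay among the controls and the other 4 lay below them, and the difference was -0.26 ± 0.092 (limma adjusted p = 0.119); without PRKO replicate 2 it was -0.33 and called (0.0354). Muc4 differed by 0.19 (-0.02 to 0.40). Muc4 and Muc16 lie at percentiles 49.6 and 43.4 of the probe sets and did not pass removal of the dimmest 50%.

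Wfdc2, a secreted protein of the tract with protease inhibitor domains, was the most variable of the 40 genes in both genotypes. It was at 6.76, 6.46, 7.21, 7.501 and 7.001 in PR+/- and 7.23, 6.58, 6.36, 6.48 and 6.53 in PRKO. PRKO replicate 1 stood well above the other 4 PRKO arrays and within the controls. The difference was -0.35 ± 0.19, with an interval of -0.75 to 0.05 (limma adjusted p = 0.3005), so a fall of more than 1.5-fold and no change both lay within it. Slpi, another secreted protease inhibitor, lies near Wfdc2 on the same chromosome, with 7 protein-coding genes between, and differed by 0.02 (-0.17 to 0.20).

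Matriptase (St14) and prostasin (Prss8) are membrane proteases of epithelia that act in sequence, and Spint1 and Spint2 are their inhibitors. St14 differed by 0.09 (-0.13 to 0.31) and Prss8 by -0.20 (-0.47 to 0.06). Spint1 and Spint2 differed by 0.13 (-0.07 to 0.33) and 0.09 (-0.08 to 0.26), and none of the 4 was called. Both proteases were spread more widely in PRKO (SD 0.24 and 0.30) than in PR+/- (0.057 and 0.12). Prss8 reached its lowest signals of 7.61 and 7.68 in PRKO replicates 4 and 5.

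Epcam, the surface adhesion molecule used to sort epithelial cells, was at 8.99, 8.93, 8.69, 8.85 and 8.89 in PR+/- and 9.13, 9.01, 8.96, 9.05 and 8.69 in PRKO. The lowest array of each group was level at 8.69, and the difference was 0.10, with an interval of -0.09 to 0.29. Cd24a, a small lipid-anchored glycoprotein, differed by 0.11 and Folr1, a folate receptor, by -0.05. Cd24a stood highest in PRKO replicate 4, at 11.42, against 10.78 to 10.98 on the other 4 PRKO arrays.

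Both trafficking genes stayed uncalled. Rab25, a small GTPase of apical recycling, was at 8.70, 8.60, 8.40, 8.40 and 8.43 in PR+/- and 8.59, 8.49, 8.32, 7.92 and 8.19 in PRKO. PRKO replicate 4 was the lowest array and the groups overlapped (log2 difference -0.20 ± 0.12, limma adjusted p = 0.337). Ap1m2, the epithelial adaptor subunit that sorts cargo to the basolateral side, was at 7.56 to 7.77 in PR+/- and 7.52 to 7.80 in PRKO. It differed by 0.01 (-0.15 to 0.17).

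Over the 40 genes, PRKO pools differed among themselves by more than the genotypes did. Averaged over the 40, the log2 signal per array was 7.76 ± 0.036 for the controls and 7.80 ± 0.11 for PRKO (SD over 5 arrays each). Averaged over all tested genes, it was 5.63 ± 0.012 and 5.63 ± 0.025, so a wider PRKO spread was not particular to the 40. PRKO replicate 5 held the lowest PRKO value for 25 of the 40 genes, or 62.5%, against 27.8% of all tested genes. PRKO replicate 1 held the highest for 21 of the 40, or 52.5%, against 24.7%. Control arrays stood apart too: PR+/- replicate 2 held the highest control value for 18 of the 40 (45%, against 18.7%) and PR+/- replicate 3 the lowest for 16 (40%, against 16.8%).

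Set against the PR+/- mean of each gene, 31, 33, 19, 23 and 9 of the 40 were higher in PRKO replicates 1 to 5. Of all tested genes, 45.4% to 56.7% were higher on any 1 array of either genotype. In PR+/- replicates 1 to 5 the counts were 26, 28, 13, 16 and 12, so replicates 1 and 2 stood above the rest in both genotypes. Both exceeded replicates 3, 4 and 5 of their own genotype for 15 of the 40 in PRKO (37.5%, against 17.4% of all genes) and for 14 of the 40 in PR+/- (35.0%, against 13.7%). Krt18, Krt19, Jup, Lsr, Prss8, St14 and Rab25 were among the 15. That order was noticed in the values, and the labels do not say what equal numbers share. The SD was larger in PRKO for 32 of the 40 (80.0%), as for 74.7% of all genes. PRKO replicate 5 also had the narrowest spread of signals of any array, with an interquartile range of 3.13 against 3.27 to 3.48 elsewhere, and the part of that in its low values was not tested.

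**Figure D4:**
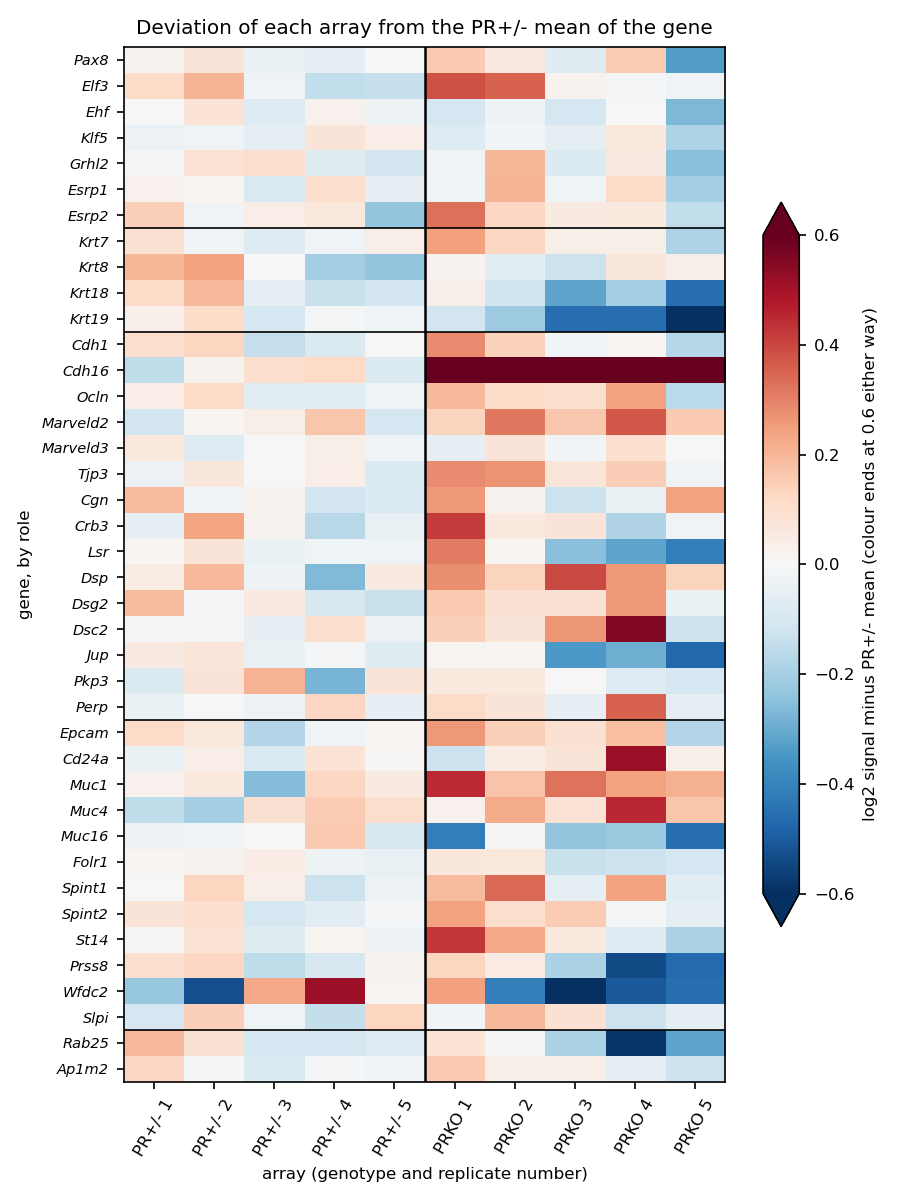
Log2 signal of each of the 40 genes (rows, by role) on each of the 10 arrays (columns) minus the gene's PR+/- mean; red is higher and blue lower, and colour ends at 0.6. Cdh16 is red on all 5 PRKO arrays, Krt19 is blue on all 5, and PRKO replicate 5 is below the PR+/- mean for all but 9 genes.

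Signals of other cells were read beside these. All 8 smooth muscle markers fell, with a median log2 difference of -0.66, and their summed signal was 9529 to 10591 in PR+/- and 5354 to 6761 in PRKO. Of 8 multiciliated cell markers, 0 were called by limma (median -0.02), and of 5 secretory cell markers 1 fell, Gpx3 (-0.72). Of 6 fibroblast markers 1 fell, of 6 endothelial markers 2 fell, and of 6 leukocyte markers 0 were called. By the same adjusted p, 3.87% of all tested genes fell and 1.09% rose. At an unadjusted limma p under 0.05, 2 secretory, 3 fibroblast and 2 endothelial markers were lower. On the higher side stood 1 multiciliated, 1 secretory, 1 fibroblast and 1 leukocyte marker. Of all tested genes, 11.1% were lower and 10.1% higher at that threshold. Ovarian steroidogenic markers stood apart on PR+/- replicate 4 and PRKO replicate 3, with a summed signal of 433.6 and 438.5 against 141.5 to 173.2 on the other 8 arrays. Without those 2 arrays, Cdh16 was still called (log2 difference 0.95) and Krt19 was not (-0.39, limma adjusted p = 0.158). Pgr itself fell on every PRKO array, to 48.0% of its PR+/- signal (log2 7.42 ± 0.11 and 6.36 ± 0.037, SD, n = 5 each, limma adjusted p = 1.0e-06).

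Further epithelial genes were listed by function, with earlier results of these data known. They gave 5 calls in 59 measured, or 8.47%, against 4.96% of all tested genes. Of these 3 rose (5.08%, against 1.09%) and 2 fell (3.39%, against 3.87%). Of 7 other keratins, 1 rose, Krt15, the gene directly next to Krt19. Its signals were 4.495, 4.52, 4.84, 4.63 and 4.72 in PR+/- and 5.39, 5.14, 4.91, 4.92 and 5.24 in PRKO. The groups did not overlap, and the difference was 0.48 ± 0.10 (limma adjusted p = 0.0162), opposite in direction to that of its neighbour. The Krt15 call was lost without PR+/- replicate 1 (difference 0.44, limma adjusted p = 0.0526) or 2 (0.45, 0.0521), and with the interquartile range covariate (0.38, 0.267).

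Of 7 other desmosome genes 2 rose, Pkp4, a plakophilin relative also found at adherens junctions (0.33 ± 0.065, limma adjusted p = 0.00844), and Dsg3, a desmosomal cadherin (0.37 ± 0.090, 0.0281). Pkp4 was at 7.61 to 7.69 in PR+/- and 7.89 to 8.05 in PRKO, with little scatter in either; without the 2 arrays of highest ovarian signal the difference was 0.31 (limma adjusted p = 0.0614). Dsg3 is dim, at 3.38 to 4.12 over the 10 arrays, and lost its call in 11 of the 19 alternatives that tested it. Among 17 adherens and tight junction genes, 2 claudins fell, Cldn3 (-0.98 ± 0.14) and Cldn1 (-0.69 ± 0.12), and 15 were not called. With the interquartile range covariate, Cldn1 was not called (-0.54, limma adjusted p = 0.117) and Cldn3 still was. Cldn4, the direct neighbour of Cldn3, differed by -0.19 (limma adjusted p = 0.329).

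Of 13 further epithelial factors and their repressors, 9 polarity genes and 6 membrane proteases and inhibitors, 0 were called by limma. An unadjusted limma p under 0.05 was reached by 5 of these 28, against 21.1% of all tested genes. Grhl1, Grhl3, Dlg1 and Serpinb5 were higher, by 0.30, 0.24, 0.16 and 0.28, with no overlap of groups for Grhl3 and Dlg1. For Grhl3 the nearest arrays of the groups were both at 4.086. Grhl1, Grhl3 and Serpinb5 are dim, at percentiles 31.6, 32.9 and 23.1 of the probe sets. Of all tested genes, PRKO was above without overlap for 2.15% and below for 5.06%. The remaining gene of the 5 was Zeb1, a repressor that binds the E-box shown above, picked out after its values were seen. It was at 6.99 to 7.03 in PR+/- and 6.57, 6.72, 6.84, 6.82 and 6.82 in PRKO. The groups did not overlap, and the difference was -0.25 ± 0.072 (limma adjusted p = 0.0582). Zeb2, Snai1 and Snai2, the related repressors, differed by -0.09, -0.24 and 0.11. Stromal and muscle cells are the usual source of these repressors in a whole organ, and all 8 smooth muscle markers fell on the same arrays; their part in the Zeb1 value was not tested.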

How the data were processed

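Total RNA of 10 oviduct pools was labelled with biotin and read on Affymetrix whole-transcript arrays, per the labels. The authors' deposited table gives each probe set a value on every array. No label states that these deposited values are log2; their range of 1.09 to 13.6 was taken to mean so, and every fold rests on it. Per the submitters' processing notes, Partek was used; how background, normalization and probe summary were handled is not given in the sources used here. Array medians were 5.20 to 5.28, and the arrays were not normalized again.

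Probe sets with 1 gene symbol were named through the platform's annotation (21789 of 35557 rows; 1621 had several symbols and 12147 none). The probe set with the highest mean over the 10 arrays stood for a gene. PRKO was compared with PR+/- by limma 3.58.1 in R 4.3.3, with genotype as the only term, over all 19938 genes, and a gene was called at a Benjamini-Hochberg adjusted p under 0.05. A ± after a difference is its SE, and SD is named where meant. No filter on dim signal was applied, since the table holds no background values. In a test on data simulated for this comparison from the 19938 genes' means and spreads, 20% of genes changed 1.25-fold, 78% changed 1.5-fold and 96% changed 2-fold were recovered.

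The members and lists were chosen with earlier results of these data known. Given in full were the called genes and the 2 genes of each role with the largest difference, plus others chosen after their values were seen. From the lists of further epithelial genes, up to 4 called genes per list were named by smallest p. Promoter windows came from a RefSeq table. Alternatives were other normalizations, filters, variance models, an interquartile range covariate, array weights, a replicate block, averaging of probe sets per gene and omitted arrays.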

Additional observations from a re-analysis of the deposited data

Results flagged for a closer look

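In 80 groups of 5 arrays (40 genes in 2 genotypes), 4 had 1 array set far from the other 4 for the range of its group; chance gives about 1 in 20 groups. Wfdc2 in PRKO replicate 1 was at 7.23, which is 0.655 above the next PRKO array. Muc1 in PR+/- replicate 3 was at 7.42, which is 0.285 below the next PR+/- array and is the lowest value behind the Muc1 difference. Dsc2 in PR+/- replicate 4 was at 6.80 and Perp in the same array at 8.00, each the highest of its group by 0.104 and 0.126. PR+/- replicate 4 is also the control array with the highest ovarian marker signal, whose part in these values was not tested.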

How the results depend on the processing

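Over 21 alternatives the 40 genes gave 837 values, of which 821 kept their side of the threshold, 12 lost a call and 4 gained one; 36 genes were never called. Cdh16 was called wherever tested. Among the 40 genes, 0 fell with quantile normalization, cyclic loess, the interquartile range covariate or without the 2 arrays of highest ovarian signal, and 2 rose with cyclic loess or the variance trend with robust moderation. Leaving out 1 array gave 0 to 2 that fell and 1 that rose. Of the further epithelial genes, 1 rose without the dimmest 50% of probe sets, with the covariate or without the ovarian-high arrays, and 1 fell with the covariate; leaving out 1 array gave 1 to 3 that rose. The median of the 40 was 0.18 with the covariate, and 0.01 to 0.08 when 1 array was left out. The cause was not tested, except that the filter tests fewer genes and an omitted array leaves fewer samples.

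The labels do not say that equal replicate numbers share anything. Deviations of equal-numbered arrays correlated at 0.104, 0.125, -0.013, 0.129 and 0.159, and 3 of 5 matched best with their own number. This fell short of the bar set for pairing, a correlation over 0.1 in every pair, but is a hint that numbers may share something. With the replicate block, 1 of the 40 rose and 1 fell. Precision is set by the 5 arrays per genotype: the median 95% interval of the 40 genes reached 0.20 on the log2 scale to either side.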
